A study of Mus musculus with 3 samples.

Results

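Peaks between genes are the open chromatin regions of the day 4 pregnant mouse uterus that lie away from every annotated gene. They were taken from the single list of 12413 FAIRE peaks (formaldehyde-assisted isolation of regulatory elements, which recovers DNA not held by nucleosomes) as those whose centre lay outside every RefSeq gene and more than 1 kb from any gene end, with a local background of 21 or less. The rule found 532 regions on 20 chromosomes, chosen by position and by background (the coverage that pileup and fold imply around the peak), or 4.29% of the list (95% Wilson interval 3.94 to 4.66, counting error only), covering 178 kb. Behind the list stand 3 libraries of 1 group: whole uteri of wild-type C57BL/6J females, 6 to 10 weeks old and untreated, mated with fertile males and collected on gestation day 4 with blastocysts present (3 mice by the growth protocol, 4 by the design text). The list names no mouse, so no value below has a spread between animals, library depth is unknown, and no test was made. Luminal and glandular epithelium, stroma, muscle, vessels and immune cells were mixed, so an open region cannot be assigned to a cell type.

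Open chromatin away from genes commonly marks enhancers, insulators and the starts of transcripts that no gene model covers. Enhancers bind transcription factors and act on promoters across kilobases to megabases, often skipping a neighbour, so the nearest gene is a position and not a target. In the uterus at this stage, progesterone and oestrogen act through receptors that bind mostly such distal elements. MicroRNA genes are a related case, because the long primary transcript can start far before the hairpin that defines the gene.

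MicroRNA genes were the nearest annotated gene for 13 of the 532 regions (2.44%), involving 8 microRNA genes. Such genes were 1228 of the 49214 annotated genes used, a share close to that among the regions. The mature sequences below show which small RNAs lie beside these regions, from RefSeq (GRCm38.p6), 5′ to 3′, with the seed (bases 2 to 8, which pair with targets) in capitals. The cluster that starts with Mir17, on the plus strand of chromosome 14, encodes 6 microRNAs known for promoting proliferation, and miR-17-5p and miR-20a-5p share a seed, as do miR-19a-3p and miR-19b-3p.
miR-17-5p: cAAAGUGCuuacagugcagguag
miR-20a-5p: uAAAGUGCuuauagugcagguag
miR-18a-5p: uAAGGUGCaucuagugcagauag
miR-19a-3p: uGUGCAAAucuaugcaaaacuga
miR-19b-3p: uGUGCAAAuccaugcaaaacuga
miR-92a-3p: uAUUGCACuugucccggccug
On chromosome 13, minus strand, the let-7 genes share 1 seed; let-7 microRNAs promote differentiation.
let-7a-5p: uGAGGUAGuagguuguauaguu
let-7f-5p: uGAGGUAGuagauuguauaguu
let-7d-5p: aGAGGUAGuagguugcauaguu
On chromosome 8 the cluster of Mir23a lies on the plus strand and the pair Mir181c and Mir181d on the minus strand, so that they point away from each other.
miR-23a-3p: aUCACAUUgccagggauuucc
miR-27a-3p: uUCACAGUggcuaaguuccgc
miR-24-3p: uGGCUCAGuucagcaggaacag
miR-181c-5p: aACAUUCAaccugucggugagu
miR-181d-5p: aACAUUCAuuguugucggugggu

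The strongest of the regions next to a microRNA gene lay 8094 bp before the let-7a-1 hairpin (chromosome 13, 48545884 to 48546848). It was 965 bp wide, with a pileup (fragment coverage at the summit) of 138 and a fold enrichment over local background, the authors' score, of 9.43. Before the Mir17 hairpin stood 3 regions in a row. The first, 2850 bp away (chromosome 14, 115040484 to 115041158), reached a pileup of 93 and a fold of 7.52, while the others, at 2054 bp and 1433.5 bp, were at 39 and 43 in pileup and at 3.18-fold and 3.48-fold. The space between Mir181c and Mir23a held 4 regions, at 4.71-fold and 7.15-fold on the Mir181c side and 6.31-fold and 3.39-fold on the Mir23a side. All of these lay before the hairpin in the direction of transcription, as did every one of the 10 regions whose nearest microRNA had a strand in the table. The 10 are not separate cases, as 3 stood before Mir17 and 4 between Mir181c and Mir23a. Because Mir181c and Mir23a point away from each other, anything between them lies before a hairpin. Of 1228 microRNA genes, 19 (1.55%) had a region between genes within 10 kb, against 0.869% of protein-coding genes beside one within 10 kb. These shares were counted differently and are not directly comparable. For a microRNA gene any region within 10 kb counted, whatever genes lay between. A protein-coding gene had to be the first one on its side of the region. Genes of a cluster share the same regions, so these 19 are not separate cases. The microRNA loci were picked out after their values were seen.

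Regions between genes were narrow, of modest height and on a low background. Their median width was 291 bp (interquartile range 245 to 370), against 379 bp for the 2298 peaks inside genes and 447 bp for the 9546 peaks within 1 kb of a gene end, all with a background of 21 or less. Widths of 250 bp or less made up 28.6% of them (152 of 532), 16.6% of peaks inside genes and 8.64% of peaks at gene ends. The median fold was 4.87 (interquartile range 3.80 to 6.20), against 5.15 inside genes and 6.04 at gene ends, and folds of 10 or more were reached by 30 regions (5.64%), against 7.35% inside genes and 10.3% at gene ends. Position and background chose the regions, and background is computed with the fold; with no replicates, all of these values are a description.

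Local background was at the lowest value of the list, 7.002 pileup units, for 256 of the 532 regions (48.1%). The share at that value was 20.7% inside genes and 14.9% at gene ends. There the fold is the pileup plus 1 over a constant, so the fold ranks these regions by summit height alone. The lowest pileup among all 532 regions was 22, the median 42 and the highest 314. Summits sat near the middle of the regions, at a median of 23.0 bp from the centre, against 32.0 bp inside genes and 39.0 bp at gene ends. Width limits this offset, and the median widths of 291, 379 and 447 bp rise in the same order. The offsets were not scaled to width.

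**Figure D1:**
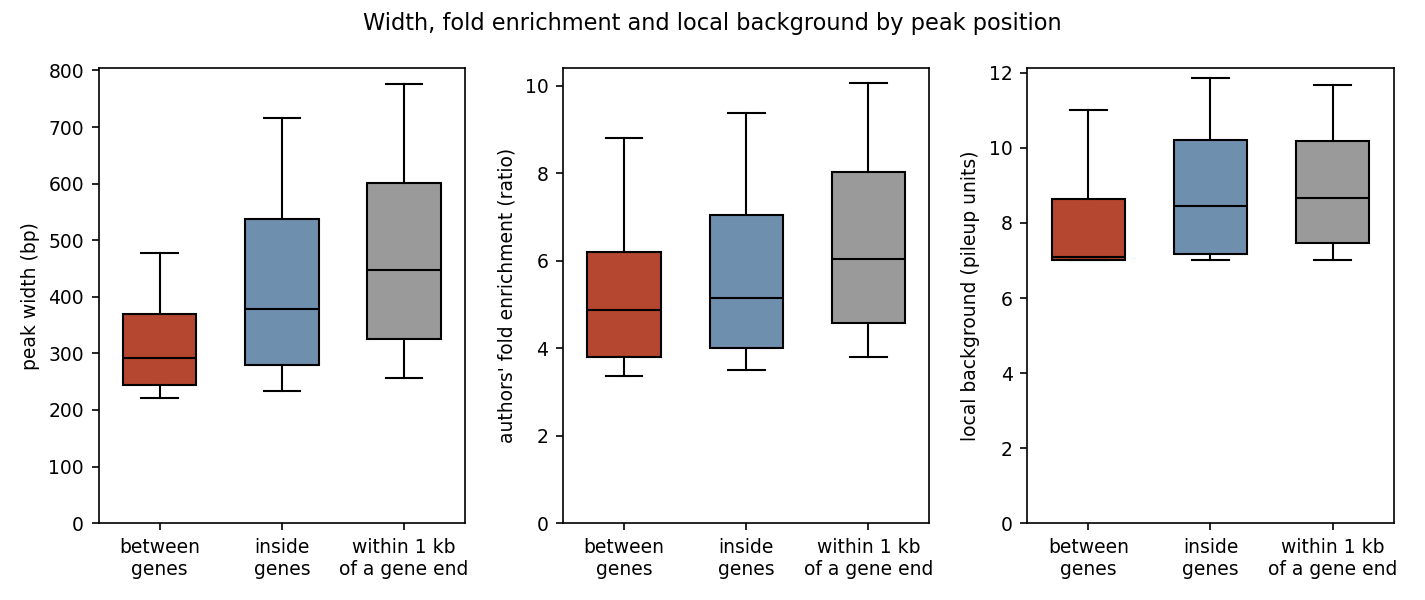
Width in bp, the authors' fold enrichment and local background in pileup units for 532 regions between genes, 2298 peaks inside genes and 9546 peaks within 1 kb of a gene end. Boxes span the quartiles with the median as a line and whiskers reach the 10th and 90th percentiles; the regions between genes have the lowest median in each panel (291 bp, 4.87-fold and 7.10).

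Most regions were not far from a gene. The median distance from the centre to the nearest gene of any kind was 9922 bp, and 269 regions had one within 10 kb. That gene was protein-coding for 236 regions (44.4%), a long non-coding RNA for 164 (30.8%) and a pseudogene, transcribed ones left out, for 96 (18.0%). Protein-coding genes were 21523 of the 49214 genes used, a share close to that among the regions. To the nearest protein-coding gene end the median was 23016 bp, with the central part from 7483 to 68757 bp (interquartile range). Where a named gene is called nearest to a region below, it is so among protein-coding genes. Within 5 kb of such an end lay 100 regions and beyond 500 kb only 15.

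Per length of free sequence the regions thinned out with distance. The space more than 1 kb from any gene came to 1266 Mb (assembly gaps included) and held 0.415 regions per Mb. Density was 1.05 per Mb at 1 to 5 kb from a protein-coding gene end, 0.734 at 5 to 10 kb, 0.644 at 10 to 50 kb, 0.429 at 50 to 100 kb, 0.191 at 100 to 500 kb and 0.0778 beyond. Height did not follow this order: the median fold was 4.55 at 1 to 5 kb, 5.37 at 5 to 10 kb, 4.87 at 100 to 500 kb and 4.50 beyond 500 kb. The share at the lowest background did, from 26.0% at 1 to 5 kb to 93.3% beyond 500 kb.

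**Figure D2:**
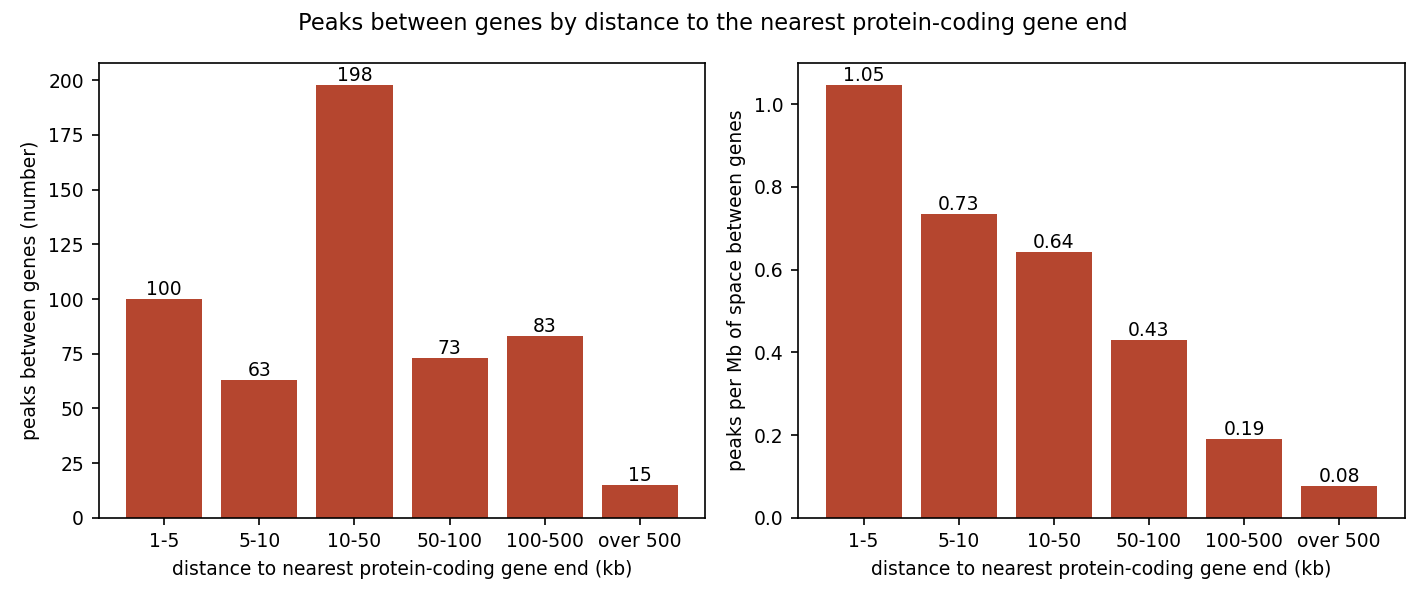
Number of regions (left) and regions per Mb of space between genes (right), by distance in kb from the region's centre to the nearest protein-coding gene end. The number peaks at 198 for 10 to 50 kb, whereas the density falls at every step, from 1.05 to 0.0778 per Mb.

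Regions lay on both sides of genes. Of 415 regions whose nearest protein-coding gene had a strand in the sequence table, 210 lay upstream of its start and 205 downstream of its other end. Per Mb of space on each side this was 0.400 upstream and 0.435 downstream. Between divergent genes the density was 0.444 per Mb (97 regions), between convergent genes 0.434 (77) and between genes in tandem 0.376 (170). The nearest protein-coding gene had a peak within 1 kb of an end for 270 regions (50.8%), and 44.5% of all 21523 protein-coding genes had one. Peak edges were used here, so a region centred just beyond 1 kb can itself be that peak. Among regions lying wholly outside the margin, which cannot count themselves, it was 253 of 512. The share for the nearest gene counts regions, so that a gene can enter more than once, and with a margin of 10 kb it was 118 of 263 regions.

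The gene lists set beside the regions were chosen with earlier results of these data known, so their ranking is only a description. Among them, immediate early and stress genes, which are switched on within minutes of a stimulus without new protein synthesis, stood highest. Of the 30 listed, 13 (43.3%) were beside a region, meaning that no other protein-coding gene lay between, against 3.99% of all protein-coding genes. Within 10 kb it was 9 of 30 (30.0%), against 0.869% of all protein-coding genes. The space around the listed genes held 2.20 region-gene pairs per Mb, against 0.413 over all genes. Of these 20 pairs, 4 were at Klf4. The list of ubiquitously expressed genes was at 1.80 per Mb, from 1 pair in 0.555 Mb. With a margin of 5 kb, 6 of the 30 were beside a region (against 2.84% of all genes), and with 10 kb 4 were (13.3%, against 2.05%). Among peaks of at least the median fold 7 were (23.3%, against 1.40%).

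All 13 are named here, more than the naming rule gives, after their values were seen. Among AP-1 genes, whose products pair into one DNA-binding factor, Fos had a region on each side. Upstream, at 1672.5 bp (chromosome 12, 85472060 to 85472375), the pileup was 80 and the fold 6.90; downstream, at 8775 bp (85485762 to 85486336), the pileup was 67 and the fold 6.89. Fosb had its strongest region 10007.5 bp upstream (chromosome 7, 19319957 to 19320294, pileup 98, 9.405-fold), and those at 6.30-fold and 3.20-fold farther out were nearer to Ercc1. Fosl2 had 1 weak region (2.82-fold, 3323.5 bp upstream), and the region at 3.35-fold 7199 bp from Junb was nearer to Hook2. Fosl1, Jun and Jund had none.

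The Egr, Nr4a and Klf genes encode zinc finger and nuclear receptor factors of the same early response. Nr4a1, also known from decidualization, had 1 region 7352.5 bp upstream (chromosome 15, 101246356 to 101246743) with a pileup of 100 and a fold of 9.54. Nr4a3 had 1 at 2056 bp upstream (7.01-fold), and Egr3 1 at 2235.5 bp (7.52-fold). Egr1 had 1 at 1252.5 bp (4.39-fold) and another at 22645.5 bp (5.72-fold) that was nearer to Etf1. Klf4, a factor of epithelial differentiation, was the nearest protein-coding gene of 4 regions, more than any gene but Stmn2. They lay 12228.5 bp and 46631 bp downstream (9.62-fold and 3.50-fold) and 118850 bp and 581541.5 bp upstream (6.60-fold and 4.00-fold). Dusp6, which switches off ERK kinases, had 1 region 1481.5 bp upstream (5.81-fold), and Zfp36, which destabilizes cytokine mRNAs, 1 at 1047.5 bp downstream (5.56-fold). Btg2, an antiproliferative gene, had 1 at 11269.5 bp downstream (4.20-fold), and Klf6 1 at 357127 bp upstream (3.26-fold).

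Together the 16 regions nearest to a listed immediate early gene ran from 2.82-fold to 9.62-fold, with a median of 6.20, and were a median of 337 bp wide. Upstream of their gene lay 9, downstream 5, and for the other 2 the strand was not known. Of all 30 listed genes, 20 had a peak within 1 kb of an end, against 44.5% of all protein-coding genes. Of the 13 beside a region, 9 had such a peak, and Fos, Fosb, Egr3 and Dusp6 did not. That peak can be the region itself where its edge lies within 1 kb, as at Zfp36. For 17 of the 30, including Myc, Atf3, Ier2, Dusp1 and Hspa8, no region lay beside the gene.

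**Figure D3:**
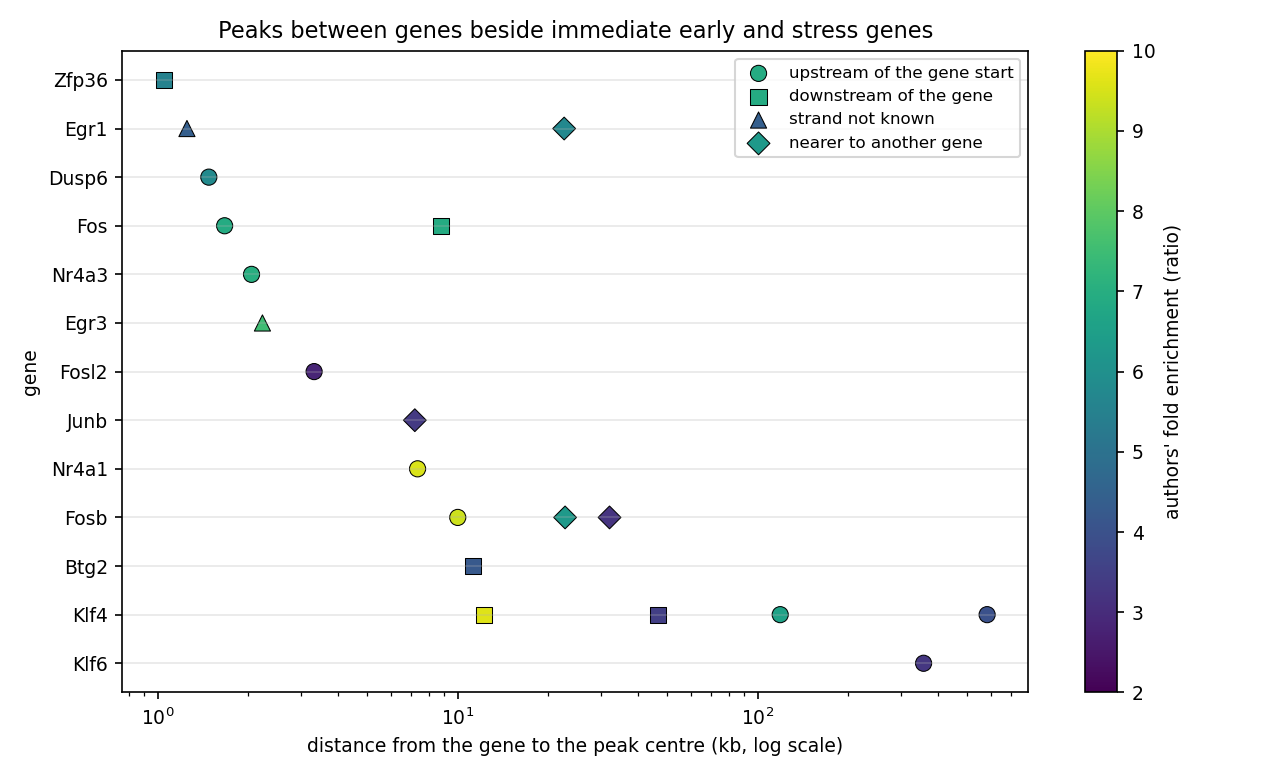
Distance in kb (log scale) from 13 immediate early and stress genes to each region between genes beside them, coloured by the authors' fold enrichment, with shapes for the side of the gene and diamonds for regions nearer to another gene. The closest region is 1047.5 bp from Zfp36 and the farthest 581541.5 bp from Klf4; the highest folds are 9.62 at Klf4, 9.54 at Nr4a1 and 9.405 at Fosb.

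The promoter windows of Fos and Socs3 (250 bases before to 50 after the start, RefSeq, GRCm38.p6) show the sequence these flanking regions stand beside, in a case without and a case with an overlapping peak. Capitals mark matches, on either strand, to TATAAA and to the GC box GGGCGG. These windows, at chr12:85473640-85473939 (plus strand) and chr11:117969317-117969616 (minus strand), were picked after their values were seen.
Fos: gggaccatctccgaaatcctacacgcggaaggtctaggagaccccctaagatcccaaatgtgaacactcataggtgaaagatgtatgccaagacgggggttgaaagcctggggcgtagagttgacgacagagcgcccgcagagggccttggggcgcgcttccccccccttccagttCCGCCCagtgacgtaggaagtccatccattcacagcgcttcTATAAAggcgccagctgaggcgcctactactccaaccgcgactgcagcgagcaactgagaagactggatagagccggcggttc
Socs3: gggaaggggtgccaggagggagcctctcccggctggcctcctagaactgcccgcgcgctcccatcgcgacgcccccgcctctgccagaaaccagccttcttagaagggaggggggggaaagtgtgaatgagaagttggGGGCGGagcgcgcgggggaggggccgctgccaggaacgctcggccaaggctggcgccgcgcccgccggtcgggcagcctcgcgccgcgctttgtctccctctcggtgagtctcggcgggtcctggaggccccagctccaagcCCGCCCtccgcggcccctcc
The Fos window held 1 TATAAA and 1 GC box and overlapped no peak, while its upstream region ended before it. The Socs3 window held 2 GC boxes and no TATAAA, and a peak of 6.90-fold overlapped it. TATAAA was present in 13.6% and the GC box in 35.7% of all 32851 windows. CG dinucleotides numbered 20 in the Fos window and 31 in the Socs3 window, against a median of 7 over all windows.

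Some gene families were set beside the regions after their values were seen, so their counts are only a description, to be read against 3.99% of all protein-coding genes. Of 8 Socs and Cish genes 2 were beside a region, of 2 inhibitory Smads 2, of 6 Sprouty and Spred genes 3, and of 4 Id genes 3. Socs3, the feedback inhibitor of Stat3 downstream of Lif, was the nearest protein-coding gene of 3 regions, all downstream, at 2498.5 bp (4.48-fold), 16311.5 bp (6.37-fold) and 35108.5 bp (6.92-fold, chromosome 11, 117930768 to 117931173). Smad6 and Smad7 are the inhibitory Smads of bone morphogenetic protein and TGF-beta signalling. Smad6 was nearest to 3 regions, at 5.13-fold 1021.5 bp upstream and at 3.58-fold and 4.89-fold farther away, and Smad7 to 1 (chromosome 18, 75342575 to 75343238) at 8.46-fold.

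The Id genes, direct targets of bone morphogenetic proteins whose products block basic helix-loop-helix factors, were beside a region in 3 of 4 cases, against 3.99% of all protein-coding genes. Id2 had the strongest (chromosome 12, 25098675 to 25099080), 2785.5 bp upstream, with a pileup of 130 and a fold of 9.99. At Id1 the regions were at 5.19-fold and 4.63-fold, and those nearest to Id3 at 3.88-fold and 4.62-fold, all on far lower summits of 36 to 48. Ski, a corepressor of Smads named here after its values were seen, had a region 3334 bp downstream at 10.8-fold (chromosome 4, 155150499 to 155150983). It belongs to none of the families counted.

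In the Notch pathway, the ligand Dll4 had a region 2359.5 bp downstream (8.32-fold) and the target Hes1 was nearest to 3, at 4.98-fold, 4.16-fold and 6.78-fold. Of 12 Notch ligands and Hes or Hey genes, examined after values were seen, 3 were beside a region, against 3.99% of all protein-coding genes; the third was Jag2, another ligand (29960.5 bp, 3.96-fold, nearer to Gpr132). Spry2, an inhibitor of receptor tyrosine kinase signalling, had 1 region 2176.5 bp upstream (7.12-fold) and another 169981.5 bp away (3.62-fold) that was nearer to Trim52. Both Bhlhe40 and Bhlhe41, circadian repressors also picked after values were seen, had a region, at 4.00-fold and 8.49-fold. For this family too, the count is only a description, to be read against 3.99% of all protein-coding genes.

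Lists for the hormonal programme of the uterus gave small counts. Progesterone and glucocorticoid regulated genes stood at 3 of 25, oestrogen regulated genes at 3 of 20, decidualization genes at 3 of 24 and receptivity genes at 2 of 32, each to be read against 3.99% of all protein-coding genes. The lists overlap: Hand2 and Cebpb count both as progesterone and glucocorticoid regulated and as decidualization genes. Fos and Egr1 of the oestrogen list and Nr4a1 of the decidualization list are also immediate early genes counted above. Nr2f2 of the progesterone list also counts as a developmental transcription factor, and Wnt7a of the receptivity list as an epithelium gene. Hand2, the progesterone-induced stromal factor that restrains epithelial growth, had 1 region 4215.5 bp downstream (chromosome 8, 57328609 to 57328856, pileup 35, 4.50-fold). Nr2f2, a stromal nuclear receptor, had 1 region 5626 bp downstream (chromosome 7, 70346176 to 70346464, 5.63-fold). Ccnd1, the cyclin of the G1 phase, had 1 at 3598.5 bp (5.28-fold), and the region nearest to Cebpb was 74935.5 bp away (5.50-fold).

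Wnt7b, a Wnt ligand of epithelium, stood beside 5 regions between it and Ppara, a fatty acid sensing nuclear receptor, on chromosome 15. The 3 nearest to Wnt7b had folds of 5.45, 3.44 and 7.17 at 44072.5 to 71895.5 bp, and the 2 nearest to Ppara had 5.13 and 3.43. Of 15 uterine genes looked at in every case, Hand2 and Nr2f2 were beside a region, and Pgr, Esr1, Lif, Foxa2, Bmp2, Hoxa10, Hoxa11, Gata2, Msx1, Ihh, Ptgs2, Fkbp5 and Sox17 were not. The closest region to any of those 13 was 293115.5 bp from Gata2, with other genes in between; for Pgr, the progesterone receptor, it was 3455198.5 bp.

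Against 3.99% of all protein-coding genes, developmental transcription factor genes were beside a region in 16 of 101 cases (15.8%). Many of these developmental genes sit in long gene-free stretches. Per Mb of surrounding space, however, their 0.411 region-gene pairs were close to the 0.413 of all genes. Foxc1 had the closest (1017.5 bp, 3.22-fold), Bcl11b 1 at 2202 bp (4.50-fold), while the closer of 2 at Mecom was at 5411 bp (4.50-fold) and the closer of 2 at Meis1 at 7796 bp (4.87-fold). Around genes of neurons and neuronal adhesion the density was lower. Their surrounding space was nearly as long, 44.7 Mb against 53.5 Mb for the developmental factors, yet a single gene of 24, Cntnap2, was beside a region (3.62-fold, 482023 bp away), or 0.0224 pairs per Mb.

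The remaining lists are each to be read against 3.99% of all protein-coding genes, and those with 1 gene beside a region, at 4.17% to 5.00%, were close to it. Signalling ligands and antagonists stood at 4 of 49, with Efna5, a membrane-bound ephrin ligand, the closest to a region (1608.5 bp, 4.61-fold). Among tissue markers, stroma and matrix genes had 2 of 20, Col1a1 (4313.5 bp, 3.16-fold) and Tnc (450948.5 bp, 9.00-fold), and smooth muscle genes 1 of 20, Cnn1 (3075.5 bp upstream, 4.68-fold). Epithelium, endothelium and immune cell genes each had 1 of 20, namely Wnt7a, Fli1 and Tyrobp, and in none was it the nearest gene. Ubiquitous genes had 1 of 20, Actb (21228.5 bp, 5.82-fold), and genes of other organs 1 of 24, Tnp1, whose region was nearer to Igfbp5.

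**Figure D4:**
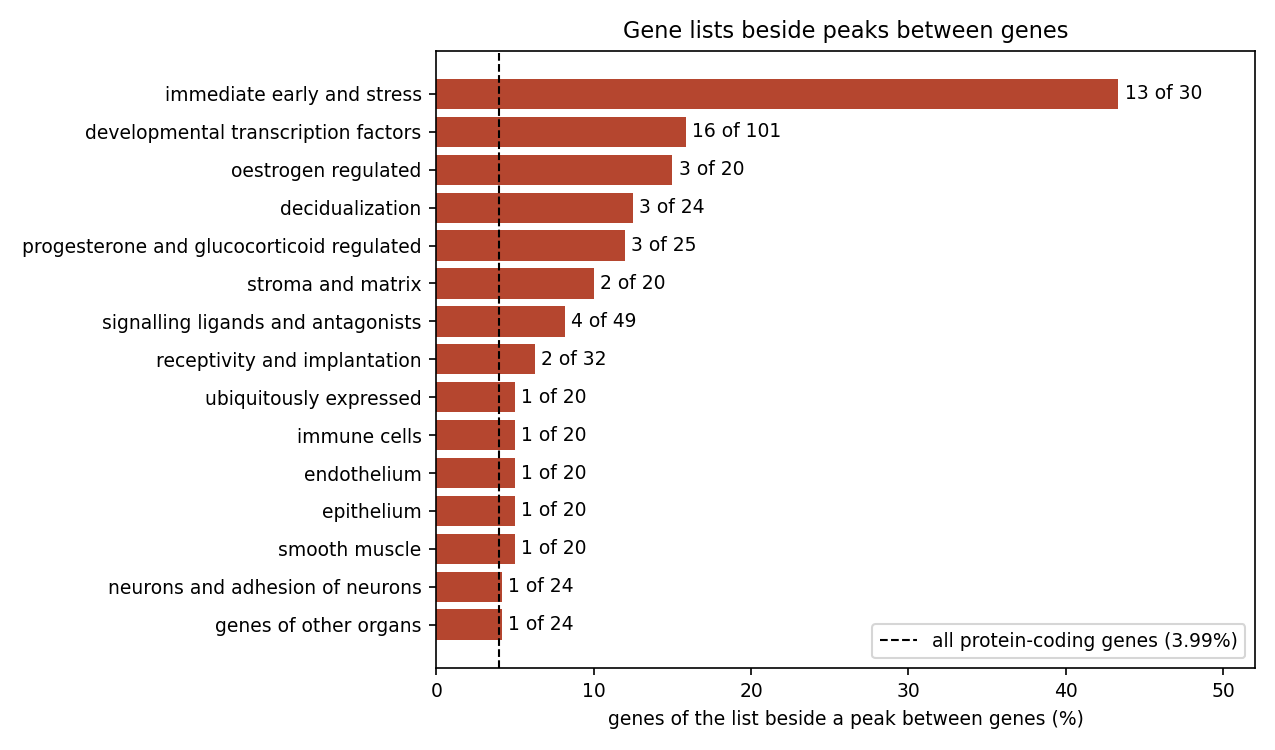
Share in percent of each gene list that stood beside a region between genes, with the number of genes at the bar's end and the share of all protein-coding genes (3.99%) as a dashed line. Immediate early and stress genes are at 13 of 30, the next list at 16 of 101, and genes of other organs at 1 of 24. The lists were chosen with earlier results of these data known.

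In all, 466 protein-coding genes (2.17%) were the nearest to a region, 414 of them to exactly 1. Klf4 and Stmn2 were nearest to 4 each, and Wnt7b, Mid1, Gpc5, Hes1, Gm40035, Elobl, Smad6, Socs3, Gm40469 and Bahcc1 to 3 each. The strongest of those at Gm40469 (5588 bp upstream, chromosome 8, 20557601 to 20558027) reached 11.4-fold, and the 3 at Gpc5 are those before Mir17.

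The median distance to the next peak of any kind was 39942 bp, against 21375 bp for peaks inside genes and 30641 bp for peaks at gene ends. No other peak lay within 100 kb for 169 regions (31.8%), against 16.9% of peaks inside genes and 18.4% at gene ends. Another peak within 10 kb was found for 124 regions (23.3%), against 35.8% of peaks inside genes and 27.0% at gene ends, and the nearest such peak was itself between genes in 55 cases, at a gene end in 51 and inside a gene in 18. The next region of the same kind lay a median of 657764.5 bp away. Of 29519 gene-free intervals, 473 (1.60%) held at least 1 region, 435 of them exactly 1, and the intervals that held one had a median length of 46.2 kb, against 16.1 kb for those without. A longer interval has more room for a region. Per Mb the regions were denser in short intervals, at 1.205 up to 10 kb, 0.761 at 10 to 50 kb, 0.377 at 50 to 200 kb and 0.136 beyond.

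Joined by gaps of up to 10 kb, 56 regions formed 24 groups: 18 pairs, 4 groups of 3 and 2 groups of 4. The groups of 4 were the one between Mir181c and Mir23a and one between Elobl and Coil (chromosome 11, 88967817 to 88970735), which held 4 regions of 2.58-fold to 3.25-fold within 2919 bp. The groups of 3 lay before Mir17, beyond Bahcc1 (3.54-fold to 4.10-fold), beside the predicted gene Gm40035 on chromosome 2 (5.43-fold to 5.75-fold within 1931 bp) and between Il7 and Stmn2 (chromosome 3, 8245244 to 8246572). The last reached 9.895-fold, more than 263 kb from Stmn2, and accounts for 3 of the 4 regions nearest to that gene, which encodes a neuronal microtubule regulator. Among peaks of at least the median fold of the list, 2 regions between genes had another within 10 kb.

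The strongest region (chromosome 3, 5860341 to 5860858) had a pileup of 314 and a fold of 23.6, between Pex2 and 1700008P02Rik. Next came chromosome 12, 3109748 to 3110211 (pileup 268, 20.6-fold), a region between Dpy19l1 and Dpy19l2 on chromosome 9 (24541901 to 24542285, pileup 142, 17.0-fold) and chromosome 13, 3372892 to 3373489 (pileup 155, 14.5-fold). The other 6 of the 10 highest, from 12.2-fold to 13.2-fold, were nearest to Pak3, Cibar2, Myl3, LOC115488002, Fam171a1 and Smad2. Regions in the first 500 kb of assembled sequence of a chromosome numbered 9, and they made up 3 of these 10. Their folds ran from 3.21 to 20.6, with a median of 10.4. Their part in the high folds was not tested; without them the median fold of the regions was 4.87, as with them.

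The folds of 10 or more also included regions close to well-studied genes, named here after their values were seen. Gnai2, an inhibitory G protein subunit, had one at 1263.5 bp (chromosome 9, 107612692 to 107613031, pileup 124, 11.9-fold). Elovl5, which elongates polyunsaturated fatty acids, had one 6629 bp upstream (77910403 to 77911069, 11.3-fold), and Gclc, the first enzyme of glutathione synthesis, one at 3737.5 bp (10.4-fold). At the other end of the list, the 5 lowest folds, 2.56 to 2.80, were nearest to Trpm8, Elobl, Zfp982, Prl2c2 and Ndp.

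Wide regions were few: 6 of 532 (1.13%) reached 900 bp, against 3.52% inside genes and 4.51% at gene ends. The widest, 1425 bp, was nearest to Gm39469 on chromosome 9 (6.44-fold), followed by 1371 bp near Sfi1 (5.02-fold), 1189 bp near Tcte2 (9.70-fold), 965 bp before let-7a-1 and 935 bp beyond Mid1 (10.6-fold). The 5 most remote regions were 219 to 304 bp wide, all on the lowest background. The farthest from any protein-coding gene lay 1202542 bp from Cdh9, between that gene and Cdh6 (chromosome 15, 15525894 to 15526122, 229 bp, 5.25-fold). The next lay 1177154 bp upstream of Zeb2, a repressor of epithelial genes (5.37-fold), 1000183 bp from Slitrk1 (4.50-fold), 896307 bp from Epha4 (3.25-fold) and 878239.5 bp from Pcdh17 (9.87-fold).

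The X chromosome had the highest share of its peaks between genes, 38 of 254 (14.96%, 95% Wilson interval 11.1 to 19.9), against 494 of 12159 (4.06%) on the autosomes. Its density, however, was 0.336 regions per Mb of space, against 0.422 on the autosomes, and X had 216 other peaks. Autosomal shares ran from 1.88% on chromosome 19 to 6.03% on chromosome 18, and densities from 0.234 per Mb on chromosome 5 to 0.742 on chromosome 11. The lowest background was found at 30 of the 38 X regions (78.9%), against 45.7% of autosomal ones. A pseudogene, transcribed ones included, was the nearest gene of any kind for 17 of the 38. Over all 532 regions it was a pseudogene for 96 and a transcribed pseudogene for 9. The share of pseudogenes among the genes of X was not counted. The highest X regions lay near Pak3, a p21-activated kinase gene (143482857 to 143483270, pileup 114, 13.2-fold), and beyond Mid1 and near Itih5l-ps (pileup 84 and 10.6-fold at both).

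**Figure D5:**
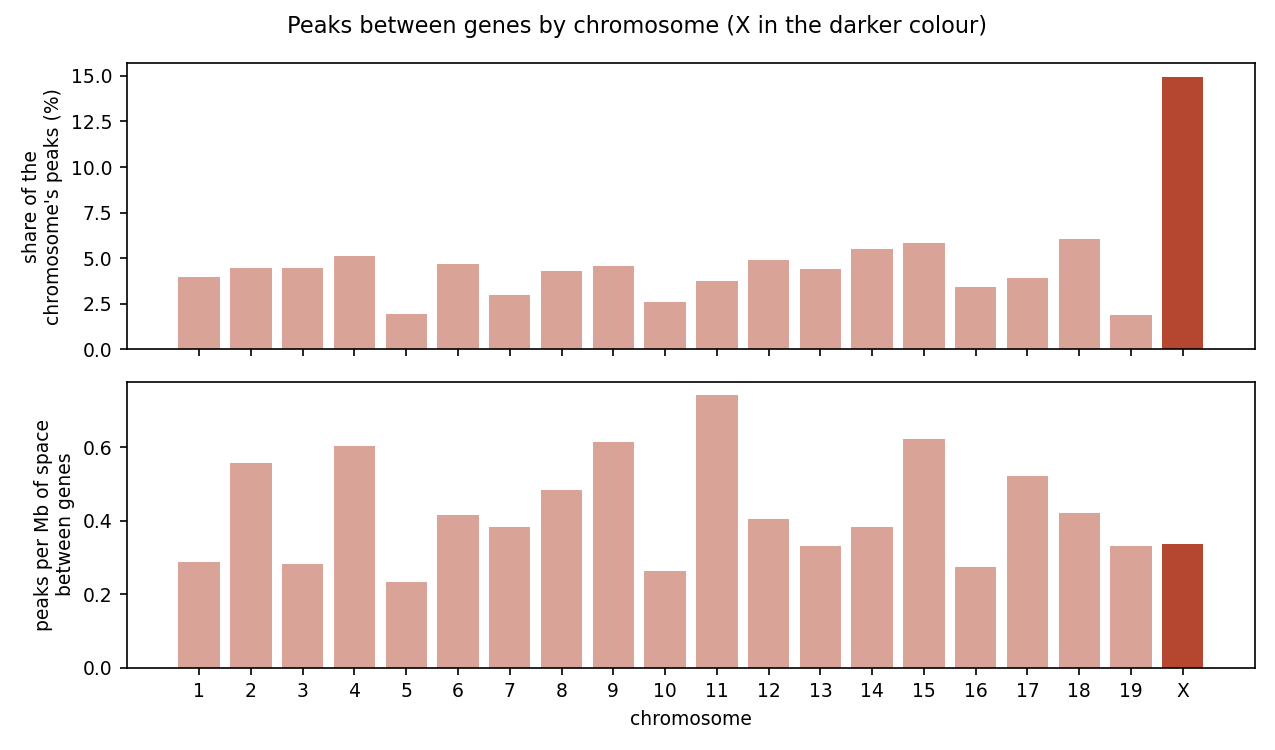
Share in percent of each chromosome's peaks that lie between genes (upper) and regions per Mb of space between genes (lower), for chromosomes 1 to 19 and X. X has the highest share, 14.96%, while its density of 0.336 per Mb lies within the range of the autosomes, 0.234 to 0.742.

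Values next to the limits of the rule were as follows. Just beyond the 1 kb margin lay regions at 1004.5 bp from Malat1 (7.68-fold), 1017.5 bp from Foxc1 (3.22-fold) and 1021.5 bp from Smad6 (5.13-fold), and just within it peaks at 986 bp from Gm14488 (7.30-fold), 950.5 bp from Prdm1 (4.135-fold) and 943 bp from Kcnh2 (2.93-fold). The highest background kept was 19.5 and the lowest left out 36.6. The limit left out 23 peaks between genes, 16 of them on chromosome 9 and 4 on chromosome 2, with a median background of 114 and a median fold of 2.63.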

How the data were processed

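Per the labels' protocols, uteri were crosslinked with formaldehyde, sheared and extracted with phenol-chloroform before sequencing. FastQC, Bowtie2, HOMER and MACS2 were used on build GRCm38.p5, per the submitters' processing notes; versions, peak threshold, input control and pooling: not given in the sources used here. The deposited table gives, per the file headers, the pileup (taken as a coverage signal), the fold enrichment (taken as a ratio to local background), and a −log10 q-value per peak.

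Local background was computed as (pileup + 1) / fold − 1. Genes (49214, with 21523 protein-coding) came from RefSeq GRCm38.p6, whose chromosomes were taken to have the coordinates of p5; 340 genes with starts below 3 Mb were left out. Strand came from the RefSeq promoter table, which covered 80.3% of protein-coding genes. Space was measured in steps of 100 bp from the first to the last gene, so 7 regions outside it enter no density. Named regions were the 10 highest and 5 lowest folds, the 5 widest, the 5 farthest, those at the limits and the larger groups; named genes were those flanking them, those nearest to the most regions, up to 4 of each list, and 15 uterine genes; others were chosen after their values were seen, as stated beside them. Members and lists were chosen with earlier results of these data known. Python 3.11.15 and pandas 2.3.3 were used, and the placement code was tested on simulated peaks. Motifs in the regions were not analysed here for want of a genome of this build.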

Additional observations from a re-analysis of the deposited data

How the results depend on the processing

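The rule was repeated under 11 alternatives, 1 of them chosen after seeing the data (leaving out the first 500 kb of assembled sequence). The count of immediate early genes was added to them after seeing the data. Shares and medians were held to the 95% binomial interval of the value reported and counts to 1.5 times. Of 99 values, 59 stayed within these limits, including every value with no background limit, a limit of 12, the whole peak outside genes, scaffold genes kept, and the first 500 kb left out. With a 0 kb margin there were 2003 regions (16.1% of peaks), with medians of 348 bp, 5.52-fold, 110 bp to any gene end and 130.5 bp to a protein-coding one; 176 had another within 10 kb and 1695 a nearest gene with a peak at an end. With 5 kb the share was 2.95%, the median distances 14517.75 and 36398.25 bp, 36 had another within 10 kb, and 6 immediate early genes were beside a region. With 10 kb there were 263 regions (2.12%), at 21949 and 53096 bp, of which 25 had another within 10 kb and 118 a nearest gene with a peak at an end; 4 immediate early genes were beside a region. Among peaks of at least the median fold there were 164 regions (2.64%), with medians of 360 bp and 7.60-fold; 2 had another within 10 kb, 46 a nearest gene with a peak at an end, and 7 immediate early genes were beside a region. Among those of at least the median −log10 q there were 154 (2.48%), with medians of 377 bp, 7.94-fold and 8392.75 bp to any gene end; 2 had another within 10 kb and 52 a nearest gene with a peak at an end. With protein-coding genes only there were 881 (7.10%), with medians of 309 bp and 3923 bp to any gene end; 107 had another within 10 kb and 471 a nearest gene with a peak at an end. Stricter peaks and wider margins lower the counts by construction. No paired analysis was possible because the table names no sample and there is 1 group; for the same reason no mouse could be left out. Depth is unknown.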
